A study of Mus musculus with 6 samples.

Results

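The genes described are those of the constitutive proteasome, in DC2.4, a mouse dendritic cell line. They were taken by name and biotype: 45 protein-coding genes whose symbols begin with Psma to Psmg and a number, of 54532 genes in the count table, without the inducible subunits Psmb8, Psmb9 and Psmb10 and without the activator genes Psme1 and Psme2. The 45 genes comprise 7 of the 20S alpha ring, 7 of the 20S beta ring, 6 ATPases and 11 non-ATPase subunits of the 19S particle, 3 other activators or inhibitors, 7 assembly chaperones, 2 tissue-restricted subunits, 1 copy of an activator gene and 1 gene that only shares the name. The samples were 3 libraries of cells transfected with a Vdbp-overexpressing pTT5 vector and 3 libraries of cells transfected with the empty vector. Per the labels, both groups were passaged 48 h after transfection and then put under selection. The labels do not name the promoter that drives Vdbp in the vector. Vdbp is the vitamin D-binding protein, whose mouse gene is Gc. Whether the replicates of a group were transfected separately is not stated in the labels, so the p-values reflect the spread among these 6 samples alone, which may be technical.

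The proteasome is the barrel-shaped protease that degrades proteins tagged with ubiquitin. Its 20S core stacks outer rings of alpha subunits, which form the gate, on inner rings of beta subunits, of which Psmb5, Psmb6 and Psmb7 carry the active sites. The 19S particle caps the core, binds ubiquitin chains, removes them and feeds the unfolded protein through a ring of ATPases. In dendritic cells the peptides that the proteasome releases are loaded on MHC class I molecules, and interferon replaces the constitutive catalytic subunits with the inducible ones. When proteasomes are blocked, the transcription factor Nrf1, the product of Nfe2l1, raises the subunit genes together through antioxidant response elements in their promoters.

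Each library held 15563800 to 16710975 counts. Gc itself was at 0 counts in each Vdbp library and in each empty-vector library. An upper 95% limit of 3 counts was taken for a count of 0, which corresponds to 0.180 to 0.193 CPM. The groups are therefore named by their labels, and the label for the cell type (bone marrow derived dendritic cells) was compared with markers. Of 18 dendritic and myeloid markers, 12 were at 1.87 CPM or more in every library, while H2-Ab1, H2-Aa, Flt3, Batf3, Xcr1 and Clec9a stayed under 1 CPM in all of them, with 0.359 CPM as the highest value. All 11 markers of other cell types were under 1 CPM (highest 0.906 CPM), and 6 were at 0 in every library. No gene of 12844 tested reached an adjusted p under 0.05 between the groups in edgeR's quasi-likelihood test, a share of 0%. An unadjusted p under 0.05 was found for 687 of them (5.35%). In DESeq2, run on 24134 genes without a filter on low counts, 0.0166% passed the adjusted threshold, and in limma-voom none did.

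Among the promoters, those of Psmb4, Psmb5 and Psmb6 are shown. These had the 3 highest log2 fold changes of the beta ring, where 6 of 7 genes were above 0. Psmb4 had the smallest p of the 44 tested proteasome genes in edgeR. The sequences are the 250 bases before the gene start in RefSeq on GRCm38.p6, read in the direction of transcription. They lie at chr3:94886959-94887208 on the minus strand (Psmb4), chr14:54617996-54618245 on the minus strand (Psmb5) and chr11:70525107-70525356 on the plus strand (Psmb6). Capitals mark a match to TGACNNNGC, one of the core forms of the antioxidant response element.
Psmb4: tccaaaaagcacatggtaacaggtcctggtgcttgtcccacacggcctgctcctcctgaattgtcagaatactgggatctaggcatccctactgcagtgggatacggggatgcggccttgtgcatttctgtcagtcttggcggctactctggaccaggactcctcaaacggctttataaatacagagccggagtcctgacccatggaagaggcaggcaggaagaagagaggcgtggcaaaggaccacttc
Psmb5: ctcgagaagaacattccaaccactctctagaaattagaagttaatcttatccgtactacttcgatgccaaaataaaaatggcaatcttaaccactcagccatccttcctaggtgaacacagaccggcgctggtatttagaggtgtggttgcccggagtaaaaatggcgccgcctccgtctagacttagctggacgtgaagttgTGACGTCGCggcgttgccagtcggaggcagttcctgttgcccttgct
Psmb6: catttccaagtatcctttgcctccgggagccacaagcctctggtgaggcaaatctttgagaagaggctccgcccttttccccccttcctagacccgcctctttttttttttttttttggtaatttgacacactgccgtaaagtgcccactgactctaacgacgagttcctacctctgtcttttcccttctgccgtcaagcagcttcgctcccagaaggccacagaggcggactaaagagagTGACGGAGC
The match began 47 bases before the start in Psmb5 and 9 bases before it in Psmb6, and the Psmb4 window held none. RefSeq promoters of 300 bases (250 before the start and 50 after it) were found for 37 of the 45 genes, with 39 promoters in all. On either strand, TGACNNNGC was in 6 of these 39 (15.4%) and in 12.4% of 32851 promoters of the genome. The other core form, TGAGNNNGC, was in 14 of 39 (35.9%) and in 17.6% of all promoters. Either form was in 18 of the 39 promoters (46.2%), against 27.8% of all promoters. Among promoters of protein-coding genes the shares were 13.0% for TGACNNNGC, 18.3% for TGAGNNNGC and 28.8% for either form. The matched promoters include that of Psmc3ip, which is no proteasome subunit. The genes with a TGAGNNNGC match included Psma4, Psma5, Psma6 and Psma7 of the alpha ring, Psmb3 of the beta ring, and Psmc2, Psmd1, Psmd12 and Psmd13 of the 19S particle. The CCAAT box, a common promoter element, was in 14 of 39 (35.9%) and in 37.4% of all promoters. A match describes the letters in the window and is not evidence of binding.

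All 31 Psm-named subunits of the 26S proteasome had transcripts in every library, at levels that differed between genes far more than between groups. The 31 subunits of the 20S core and the 19S particle ranged in mean level over the 6 libraries from 24.7 FPKM for Psmd11, a lid subunit, to 217 FPKM for Psmb4, a non-catalytic beta subunit, a ratio of 8.80. FPKM, as deposited, is the count scaled by gene length and library size. FPKM depends on the gene length in the table. Per kilobase of the longest coding transcript the lowest was Psma3, at 37.1 CPM, and the highest again Psmb4, at 361 CPM, a ratio of 9.71. Subunits that enter the complex in equal copies thus differed several-fold in RNA level. Within the alpha ring the mean level ran from 27.0 FPKM (Psma3) to 165 FPKM (Psma6), within the beta ring from 37.6 FPKM (Psmb1) to 217 FPKM (Psmb4). The ATPases ran from 28.0 FPKM (Psmc6) to 106 FPKM (Psmc1), and the non-ATPase subunits from 24.7 FPKM to 129 FPKM (Psmd2). Per kilobase of transcript Psma7 was the top of the alpha ring, at 200.4 CPM beside 196 CPM for Psma6, and Psmd4 the top of the non-ATPase subunits, at 195 CPM beside 177 CPM for Psmd2. Assembly chaperones ranged from 5.78 FPKM for Psmg3 to 40.04 FPKM for Psmg4, so that some lay above the lowest subunits of the particle. Per kilobase of transcript their ends were Psmd9 at 16.8 CPM and Psmg1 at 45.4 CPM. Sequence is shared with other genes for some of these: of the 75-base windows of their transcripts, 40% in Psmb5, 39.8% in Psma5, 33.1% in Psmb3, 21.3% in Psma3 and 20.3% in Psmg3 also occur in another gene, mostly predicted copies, so their counts are uncertain.

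**Figure D1:**
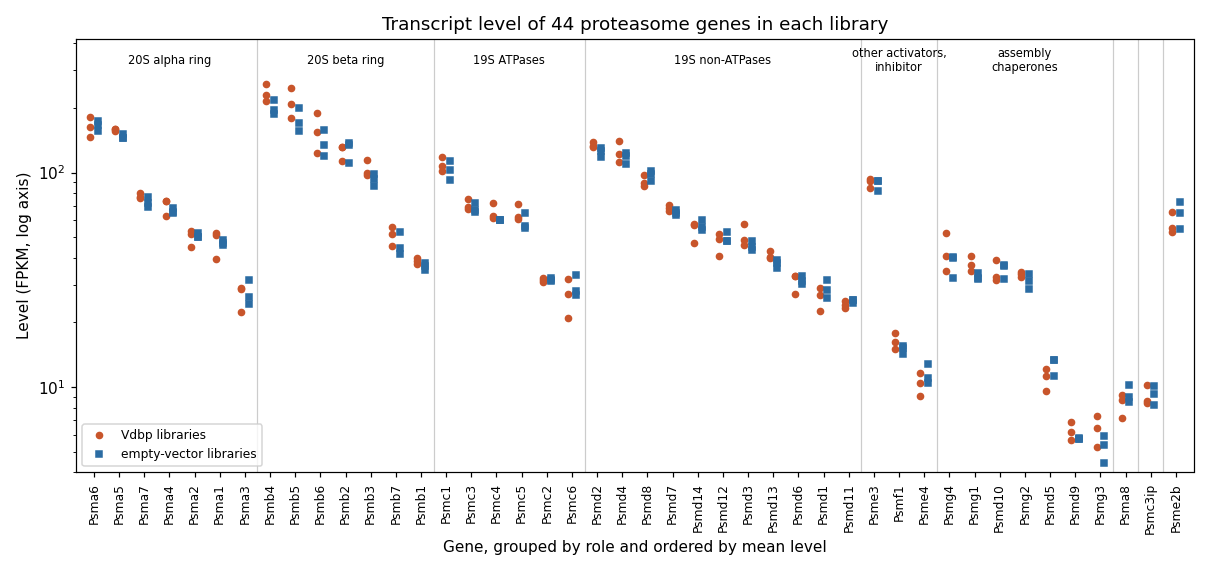
Transcript level (FPKM, log axis) of 44 proteasome genes in each of the 6 libraries, grouped by role; circles are Vdbp libraries and squares empty-vector libraries. The genes of the core and the 19S particle span 24.7 to 217 FPKM in mean level, while the groups lie close together within each gene.

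In the plot of levels by role the groups lie close together within each gene. Summed over the 45 genes, the level was 7261, 7108 and 6933 CPM in Vdbp libraries 1, 2 and 3, against 6839, 6790 and 6805 CPM in empty-vector libraries 1, 2 and 3. CPM is the count scaled to a fixed library size, with TMM scaling to even out library composition. The 3 Vdbp sums lay above the 3 empty-vector sums without overlap, with means of 7101 ± 164 CPM and 6811 ± 24.8 CPM (SD, n = 3 each), a log2 difference of 0.06 that was not tested. In bulk RNA, a different number of cells that use a gene and a different amount of RNA per cell cannot be told apart. As a share of all counts these genes took 0.707%, 0.720% and 0.697% in Vdbp libraries and 0.679%, 0.677% and 0.688% in empty-vector libraries. Each single role overlapped between the groups in its summed level. The beta ring, for example, summed to 1867, 1670 and 1536 CPM in Vdbp libraries and to 1507, 1418 and 1594 CPM in empty-vector libraries.

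None of the 44 proteasome genes that passed the filter on low counts passed the test of a difference between the groups. Their adjusted p-values in edgeR lay between 0.781 and 0.986, beside 0% of all tested genes past the threshold. The differences were small and tightly bounded. The median log2 fold change, Vdbp over empty vector, was 0.07 over the 44 genes and −0.01 over all tested genes, and 26 of 44 were above 0 (59.1%), against 48.7% of all genes. The median size of the log2 fold change, without its sign, was 0.10 for proteasome genes and 0.13 for all genes, with a median SE of 0.10 and 0.14. For 43 of the 44, the 95% interval stayed inside 1.5-fold on both sides, against 70.7% of all tested genes. The exception was Psmg3, an assembly chaperone with few counts (214 to 342 per library). For 24 of the 44 the interval lay within 1.25-fold, against 22.5% of all genes. Well-counted genes have narrow intervals, and the 31 subunits of the core and the 19S particle had at least 1184 counts in every library.

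**Figure D2:**
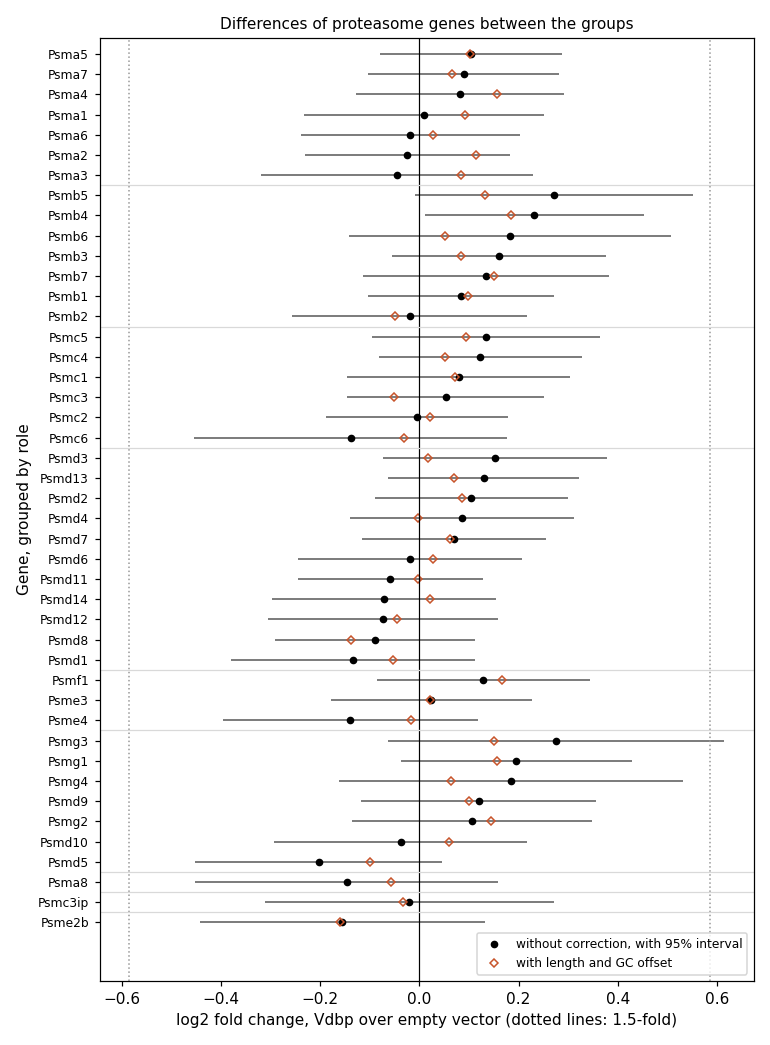
Log2 fold change of each of 44 proteasome genes, Vdbp over empty vector, grouped by role; black points with 95% intervals are the edgeR fit and open diamonds the fit with an offset for gene length and GC content. Of the 44 intervals, 43 lie within the dotted lines at 1.5-fold, and the highest point is Psmg3 at 0.27.

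Genes whose libraries did not overlap between the groups were counted next. In 5 of 44 proteasome genes all 3 Vdbp libraries were above all 3 empty-vector libraries, against 5.26% of all tested genes, and in 0 all 3 were below, against 5.61% of all. The 5 were Psma5 of the alpha ring, the ATPase Psmc4, the 19S subunits Psmd2 and Psmd13, and Psmg1, a chaperone of alpha-ring assembly. Psmd2, a large scaffold of the 19S base that binds ubiquitin receptors, had 563, 538 and 531 CPM in Vdbp libraries and 507, 481 and 529 CPM in empty-vector libraries. The gap between the lowest Vdbp library and the highest empty-vector library was under 2 CPM, and the log2 fold change was 0.10 (SE 0.09). Psmc4 had 157, 133 and 137 CPM in Vdbp libraries and 130.1, 132 and 130.4 CPM in empty-vector libraries. Its empty-vector libraries were nearly equal, with an SD of 0.795 CPM, and its log2 fold change was 0.12 (SE 0.09). Psmd13, a lid subunit, had 147, 135 and 137 CPM in Vdbp libraries and 133, 123 and 128 CPM in empty-vector libraries (log2 fold change 0.13, SE 0.09). It overlaps Gm15542 and Sirt3 in the annotation, and no source used here states whether the counting used strand.

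Without a correction for GC content the beta ring had the highest median log2 fold change of the roles with 6 or more genes, 0.16. Of its 7 genes 6 were above 0. With an offset for gene length and transcript GC content its median was 0.0975, beside 0.0995 for the assembly chaperones and 0.0908 for the alpha ring. Psmb4 (ENSMUSG00000005779, chromosome 3, 94884093 to 94886961, minus strand), a subunit without an active site that takes part in joining assembling rings into the core, had 507, 451 and 424 CPM in Vdbp libraries and 383, 370.0 and 425 CPM in empty-vector libraries. Vdbp libraries 1 and 2 were the highest of the 6, and Vdbp library 3 lay within 1 CPM of empty-vector library 3, the highest of its group. The log2 fold change was 0.23 (SE 0.10, 95% interval 0.01 to 0.45), with an unadjusted p of 0.0415 and an adjusted p of 0.781 in edgeR. It was the only proteasome gene with an unadjusted p under 0.05 in this fit, against 2.81% of all tested genes called in that direction. At that level limma-voom also found 1, against 5.46% of all genes. DESeq2 found Psmb4 and Psmb5, against 2.59% of 24134 genes, a set that was not filtered on low counts. In edgeR no proteasome gene had an unadjusted p under 0.05 with the replicate block. The same held when empty-vector library 1, empty-vector library 2, Vdbp library 1 or Vdbp library 2 was left out. The value for Psmb4 thus did not hold there, in runs that called 258 to 695 of all genes at that level. Without empty-vector library 3 there were 3 proteasome genes, against 1158 of all genes. Without Vdbp library 3 there were 5, against 1532 of all genes, and Psmb4 was among them (unadjusted p 0.0271 in edgeR). Psmb3, another subunit without an active site, was at 0.16 on the log2 scale (SE 0.10), Psmb1 at 0.08 (SE 0.09) and Psmb2 at −0.02 (SE 0.11).

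The 3 catalytic subunits had log2 fold changes above 0, with groups that overlapped in each. Psmb5 (ENSMUSG00000022193, chromosome 14, 54614119 to 54618022, minus strand), which cuts after hydrophobic residues and is the main target of proteasome inhibitor drugs, had 225, 187 and 162 CPM in Vdbp libraries and 154, 142 and 180.1 CPM in empty-vector libraries. Empty-vector library 3 was above Vdbp library 3. The log2 fold change was 0.27 (SE 0.13, 95% interval −0.01 to 0.55), with an unadjusted p of 0.0572 and an adjusted p of 0.781 in edgeR. Psmb6 (ENSMUSG00000018286, chromosome 11, 70525367 to 70527858, plus strand), which cuts after acidic residues, had 358, 291 and 231 CPM in Vdbp libraries and 252, 228 and 297 CPM in empty-vector libraries. Here empty-vector library 3 was above Vdbp libraries 2 and 3, and the log2 fold change was 0.18 (SE 0.15, adjusted p 0.784 in edgeR). Without Vdbp library 1 and empty-vector library 2 it was −0.07. Psmb7 (ENSMUSG00000026750, chromosome 2, 38588036 to 38644087, minus strand), which cuts after basic residues, had 179, 191 and 155 CPM in Vdbp libraries and 152, 144 and 182 CPM in empty-vector libraries. Its groups overlapped too, with a log2 fold change of 0.14 (SE 0.11). Empty-vector library 3 was the highest empty-vector library for all 3 catalytic subunits and Psmb4, and Vdbp library 3 the lowest Vdbp library. Psmb7 overlaps Nek6 on the other strand.

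Without a correction for GC content the alpha ring showed no common direction, with a median log2 fold change of 0.01 and 4 of 7 genes above 0. With an offset for gene length and transcript GC content all 7 were above 0, with a median of 0.09. Psma5 had 213, 206 and 211 CPM in Vdbp libraries and 200.4, 194 and 192 CPM in empty-vector libraries. The groups did not overlap, and the log2 fold change was 0.10 (SE 0.08, adjusted p 0.784 in edgeR). Psma3 had the lowest value of the ring, −0.05 (SE 0.13). Psma1, at 118, 151 and 155 CPM in Vdbp libraries and 139, 145 and 137 CPM in empty-vector libraries, had its lowest level in Vdbp library 1 and a log2 fold change of 0.01 (SE 0.11). Vdbp library 1 was the lowest of all 6 also for Psma2, Psma3, Psma4 and Psma6.

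Among the 6 ATPases, which unfold the substrate and open the gate of the core, the median log2 fold change was 0.07 and 4 of 6 were above 0. Psmc6 was at the low end at −0.14 (SE 0.14), with 73.7, 94.9 and 112 CPM in Vdbp libraries and 97.7, 118 and 93.8 CPM in empty-vector libraries. Its Vdbp libraries held both the lowest value and the second highest of the 6. Psmc2 was the steadiest ATPase, at 159.7 ± 3.82 CPM in Vdbp libraries and 160.2 ± 2.59 CPM in empty-vector libraries (SD, n = 3 each).

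The 11 non-ATPase subunits of the 19S particle had a median log2 fold change of −0.02, with 5 above 0. The highest was Psmd3, a lid scaffold (0.15, SE 0.10), and the lowest was Psmd1 (−0.13, SE 0.11). With an offset for gene length and transcript GC content Psmd3 was at 0.02 and Psmd1 at −0.05, and the ends were Psmd2 (0.09) and Psmd8 (−0.14). Psmd1, the partner of Psmd2 in the base, had 166, 196 and 210.4 CPM in Vdbp libraries and 206, 233 and 189.5 CPM in empty-vector libraries. The groups overlapped, with the extremes in Vdbp library 1 and empty-vector library 2, and without these libraries its log2 fold change was 0.04. Psmd4, a receptor for ubiquitin chains, was at 0.09 on the log2 scale (SE 0.10), and Psmd14, the enzyme that cuts ubiquitin chains from the substrate, at −0.07 (SE 0.10).

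Assembly chaperones, which are not part of the finished particle, had a median log2 fold change of 0.12 with 5 of 7 above 0. Psmg1, which forms a dimer with Psmg2 to start the alpha ring, had 55.3, 49.8 and 46.6 CPM in Vdbp libraries and 45.7, 43.8 and 43.0 CPM in empty-vector libraries. Its groups did not overlap, and the log2 fold change was 0.19 (SE 0.11, unadjusted p 0.0932, adjusted p 0.781 in edgeR). Psmg3, the partner of Psmg4 in the same step, had 21.3, 18.6 and 15.3 CPM in Vdbp libraries and 15.6, 12.9 and 17.1 CPM in empty-vector libraries. It had the highest log2 fold change of the 44, 0.27 (SE 0.16, 95% interval −0.06 to 0.61, adjusted p 0.781 in edgeR), and empty-vector library 3 exceeded Vdbp library 3. Psmd5, a chaperone of the ATPase ring, stood at the other end with 69.9, 81.3 and 88.4 CPM in Vdbp libraries and 96.7, 97.6 and 81.6 CPM in empty-vector libraries. Its log2 fold change of −0.20 (SE 0.11, adjusted p 0.781 in edgeR) was the lowest of all 44, and the groups overlapped. The other ATPase-ring chaperones, Psmd9 and Psmd10, had log2 fold changes of 0.12 (SE 0.11) and −0.04 (SE 0.12).

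Alternative caps and inhibitors of the core had log2 fold changes on both sides of 0. Psme3, the nuclear activator PA28 gamma, was at 88.9 FPKM, above Psmf1, an inhibitor of the core in vitro, at 15.7 FPKM and Psme4, the activator PA200, at 10.9 FPKM. The log2 fold change was 0.02 for Psme3 (SE 0.09), 0.13 for Psmf1 (SE 0.10) and −0.14 for Psme4 (SE 0.12). Psme4 had 76.6, 87.8 and 98.2 CPM in Vdbp libraries and 92.2, 109 and 88.1 CPM in empty-vector libraries, overlapping groups whose lowest value was in Vdbp library 1 and whose highest was in empty-vector library 2. Without these libraries its log2 fold change was 0.04.

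Psma8 and Psmb11, subunits known from other tissues, were low or near absent. Psma8, the alpha subunit of testis, had 12.3, 14.8 and 15.6 CPM in Vdbp libraries and 15.2, 17.4 and 14.5 CPM in empty-vector libraries (log2 fold change −0.15, SE 0.14). Its groups overlapped, and its mean level of 8.79 FPKM compares with 75.1 FPKM for Psma7, the alpha subunit whose place it takes in testis (8.85 and 200.4 CPM per kilobase of transcript). Psmb11, the catalytic subunit of thymic cortical epithelium, had 1 count in all, in Vdbp library 2, and was not tested. Psme2b, an intronless copy of Psme2, had 44.5, 54.7 and 46.1 CPM in Vdbp libraries and 45.5, 54.9 and 61.5 CPM in empty-vector libraries (log2 fold change −0.16, SE 0.13). Its mean level was 60.8 FPKM. Of its 75-base windows 60.2% are shared with other genes, so reads cannot be assigned to it with certainty. Psmc3ip, which acts in meiotic recombination and is no proteasome subunit, had 15.4, 18.6 and 15.8 CPM in Vdbp libraries and 16.8, 15.2 and 18.5 CPM in empty-vector libraries (log2 fold change −0.02, SE 0.13).

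The order of the fold changes within the complex followed the GC content of the transcripts. Across the 44 genes, Spearman's rho between the log2 fold change and transcript GC content was 0.72, and across 12834 tested genes with a GC value it was 0.53; genes share the same 6 libraries, so this is a description. Libraries differed in this trend: the rho of GC content with the log2 deviation of a library from the gene means, over all genes, was 0.74, −0.02 and −0.40 in Vdbp libraries 1, 2 and 3, against −0.08, −0.63 and 0.06 in empty-vector libraries 1, 2 and 3. Vdbp library 1 was the highest of the 6 libraries for 19 proteasome genes and the lowest for 16. Empty-vector library 2 was the highest for 10 and the lowest for 14. The same libraries were the extremes on the first principal component of all genes, with 41.2% of the variance. Mitochondrial genes took 1.49%, 1.80% and 2.18% of counts in Vdbp libraries, against 1.83%, 2.61% and 1.82% in empty-vector libraries, lowest and highest in that same pair, and the part of this share in the fold changes was not tested. Without that pair of libraries the log2 fold change was 0.11 for Psmb4, 0.06 for Psmb5, 0.12 for Psmg1, 0.05 for Psmg3 and −0.07 for Psmd5.

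**Figure D3:**
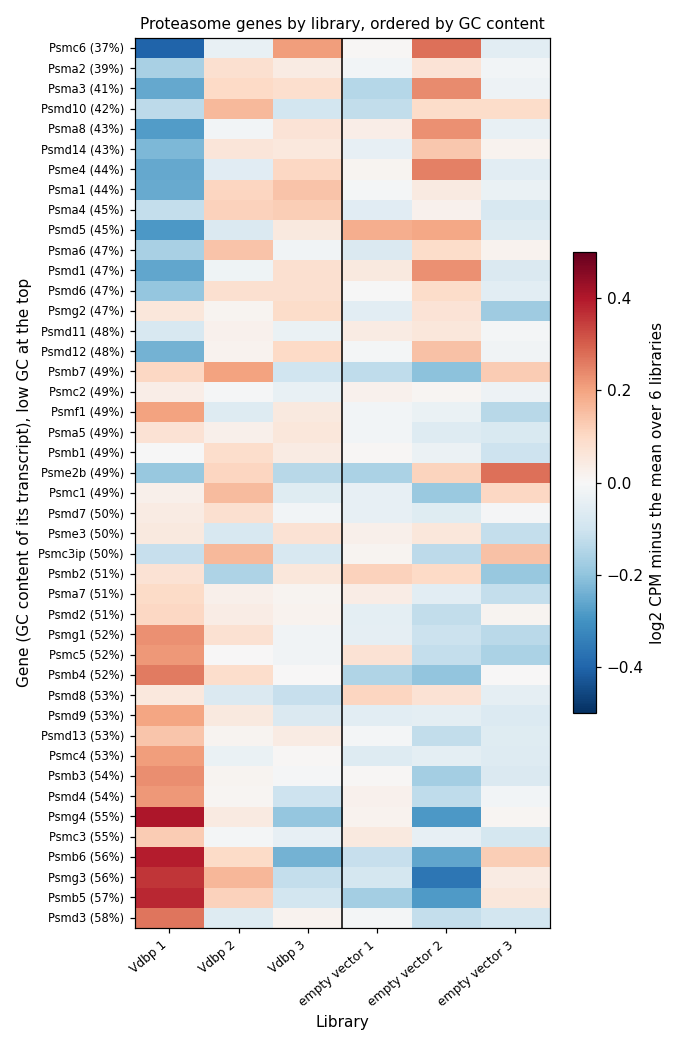
Log2 CPM of each of 44 proteasome genes minus its mean over the 6 libraries, genes ordered by transcript GC content with low GC at the top, Vdbp libraries on the left. Vdbp library 1 lies below the mean for most low-GC genes (median −0.25) and above it for high-GC genes (median 0.37), and empty-vector library 2 the other way (medians 0.14 and −0.27).

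In the map of libraries by GC content the 9 genes under 45% GC, among them Psmc6, Psma2, Psma3 and Psme4, had a median deviation of −0.25, 0.08 and 0.09 (log2) in Vdbp libraries 1, 2 and 3, against −0.01, 0.14 and −0.03 in empty-vector libraries 1, 2 and 3. The 6 genes at or above 55% GC, among them Psmb5, Psmb6, Psmg3 and Psmd3, had 0.37, 0.07 and −0.11 in Vdbp libraries and −0.05, −0.27 and 0.03 in empty-vector libraries. Low-GC and high-GC genes of the same complex therefore lay on opposite sides of their means in Vdbp library 1 and in empty-vector library 2. The fit was repeated with an offset that takes out of each library its trend with gene length and transcript GC content. The rho across the 44 genes then was 0.12, and 0.03 across all genes. The median deviation in Vdbp library 1 became 0.02 for the low-GC genes and 0.12 for the high-GC genes. In empty-vector library 2 it became −0.02 for the low-GC genes and −0.10 for the high-GC genes. The high-GC genes thus kept part of their deviation in both libraries.

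**Figure D4:**
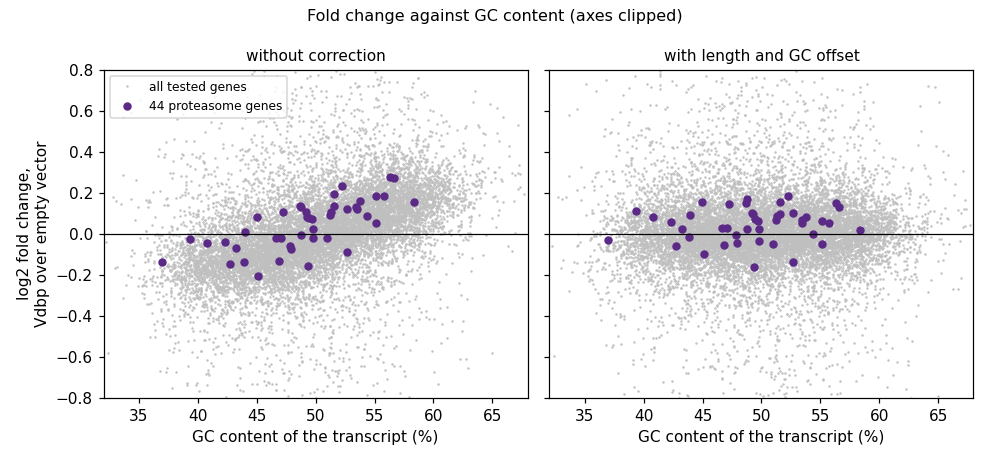
Log2 fold change, Vdbp over empty vector, against transcript GC content (%) for all tested genes (grey, axes clipped) and 44 proteasome genes (purple), without correction on the left and with the length and GC offset on the right. Spearman's rho over the proteasome genes is 0.72 on the left and 0.12 on the right.

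After the correction 31 of 44 proteasome genes had a log2 fold change above 0 (70.5%), against 50.1% of all genes, and the median was 0.06, against 0.00 over all genes. All 7 alpha-ring genes were then above 0, with a median of 0.09, and 6 of 7 beta-ring genes, with a median of 0.10. The sign turned in 9 of the 44 genes, to above 0 in Psma2, Psma3, Psma6, Psmc2, Psmd6, Psmd10 and Psmd14 and to below 0 in Psmc3 and Psmd4. The ATPases had a median of 0.04, the non-ATPase subunits of 0.02 and the assembly chaperones of 0.10. No proteasome gene passed the threshold here either: the adjusted p-values in edgeR lay between 0.462 and 0.995, beside 0.0156% of all genes called. At an unadjusted p under 0.05 there were 6 of 44, against 8.99% of all genes. These were Psma4, Psmb4, Psmb5, Psmg1 and Psmf1 above 0, the direction of 4.53% of all genes, and Psmd8 below 0. Psma4 had the smallest p among them, with a corrected log2 fold change of 0.16 (unadjusted p 0.0091, adjusted p 0.462 in edgeR). Psmb4 kept most of its difference (0.18 corrected), whereas Psmb5 was at 0.13 and Psmb6 at 0.05 after the correction.

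The inducible subunits, which replace the catalytic ones in the immunoproteasome, were at lower levels than their constitutive counterparts. Psmb8 had 26.8 FPKM beside 194 FPKM for Psmb5, Psmb9 had 7.37 FPKM beside 147 FPKM for Psmb6, and Psmb10 had 36.4 FPKM beside 48.6 FPKM for Psmb7, as means over 6 libraries. The last comparison depends on the deposited length of Psmb7 (3421 bases, beside 1160 for its longest coding transcript): per kilobase of transcript Psmb10 was at 47.6 CPM and Psmb7 at 144 CPM. Psmb8, the counterpart of Psmb5, had 96.0, 87.8 and 66.6 CPM in Vdbp libraries and 58.3, 51.9 and 81.1 CPM in empty-vector libraries. Its groups overlapped through Vdbp library 3 and empty-vector library 3, with a log2 fold change of 0.39 (SE 0.17, unadjusted p 0.0414, adjusted p 0.781 in edgeR). Psmb10, the counterpart of Psmb7, had 79.9, 65.8 and 62.0 CPM in Vdbp libraries and 54.8, 49.8 and 62.4 CPM in empty-vector libraries. The overlap was by less than 1 CPM, and the log2 fold change was 0.31 (SE 0.13, unadjusted p 0.0276, adjusted p 0.781 in edgeR). Psmb9, the counterpart of Psmb6, was at 28.4 ± 4.71 CPM in Vdbp libraries and 25.9 ± 1.80 CPM in empty-vector libraries (SD, n = 3 each), and its log2 fold change was 0.14 (SE 0.14). The PA28 genes Psme1 and Psme2, whose products widen the gate of the core, had log2 fold changes of 0.05 (SE 0.09) and 0.20 (SE 0.11). With the length and GC offset these 5 values were 0.27 for Psmb8, 0.18 for Psmb10, 0.03 for Psmb9, −0.06 for Psme1 and 0.14 for Psme2. Of the 75-base windows of Psme2, 51.7% also occur in Psme2b, so the counts of Psme2 are uncertain.

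Set against the constitutive catalytic subunits per length, the summed FPKM of Psmb8, Psmb9 and Psmb10 over that of Psmb5, Psmb6 and Psmb7 was 0.184, 0.188 and 0.192 in Vdbp libraries 1, 2 and 3, against 0.172, 0.171 and 0.179 in empty-vector libraries 1, 2 and 3. The groups did not overlap, with means of 0.188 ± 0.00374 and 0.174 ± 0.00456 (SD, n = 3 each), 7.91% apart, a difference that was not tested. The inducible genes have a GC content of 55.3% to 56.5%, Psmb5 and Psmb6 of 56.6% and 55.8%, and Psmb7 of 48.7%. Pair by pair the groups overlapped: Psmb8 over Psmb5 was 0.143 ± 0.00993 and 0.131 ± 0.0150, and Psmb9 over Psmb6 0.0499 ± 0.00297 and 0.0515 ± 0.00420, in Vdbp and empty-vector libraries. Psmb10 over Psmb7 was 0.796 ± 0.104 in Vdbp libraries and 0.701 ± 0.0189 in empty-vector libraries. Per transcript length this last ratio was 0.351 ± 0.0459 in Vdbp libraries and 0.309 ± 0.00832 in empty-vector libraries, and the summed ratio 0.171 ± 0.00274 and 0.158 ± 0.00381, 8.69% apart and again without overlap.

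**Figure D5:**
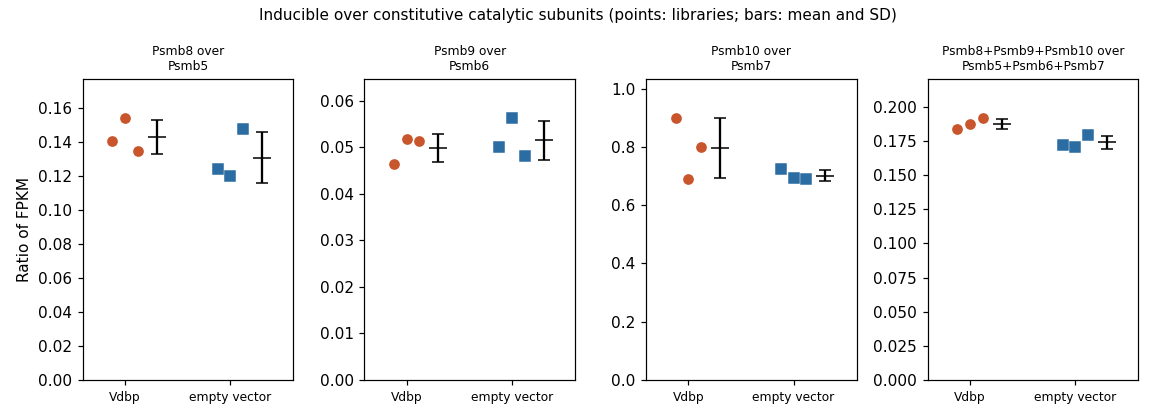
Ratio of FPKM of inducible over constitutive catalytic subunits in each library, pair by pair and summed; points are libraries, and bars the mean and SD of 3 libraries, Vdbp on the left in each panel. In the summed ratio all Vdbp libraries (0.184 to 0.192) lie above all empty-vector libraries (0.171 to 0.179), while each single pair overlaps.

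In the plot of catalytic ratios the summed inducible set lay far below the summed constitutive set in every library. The single pair of Psmb10 over Psmb7 ran higher, from 0.689 to 0.898.

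Genes that act with the proteasome also gave no adjusted p under 0.05 in edgeR. Of 9 tested cofactors without a Psm name, 2 had a log2 fold change above 0 and the median was −0.10 (0.02 with the offset). Txnl1, a thioredoxin-like protein bound to the 19S particle, had the highest FPKM of these, 41.6 (log2 fold change −0.09, SE 0.10), although per kilobase of transcript it was at 24.6 CPM, below Adrm1, a ubiquitin receptor of the 19S particle, at 85.9 CPM, and Ube3c, a ubiquitin ligase of the proteasome, had the smallest p (−0.15, SE 0.10). Of 12 tested regulators of proteasome genes, 8 were above 0, with a median of 0.07 (6 of 12 and 0.00 with the offset). Vcp, the ATPase that helps to release Nrf1 from the endoplasmic reticulum, was at 80.6 FPKM (0.06, SE 0.09), and Ngly1, the enzyme that strips sugars from Nrf1, had the smallest p (0.29, SE 0.17, adjusted p 0.781 in edgeR). Nfe2l1 itself had 414, 390.3 and 346 CPM in Vdbp libraries and 366, 335 and 399 CPM in empty-vector libraries, overlapping groups with a log2 fold change of 0.06 (SE 0.10), or −0.01 with the offset. Among 10 genes of ubiquitin and its activation 3 were above 0 (median −0.06; 5 and −0.01 with the offset), with Ubb, a polyubiquitin gene, at 391 FPKM (−0.06, SE 0.12) and Ube2n, a conjugating enzyme, at −0.19 (SE 0.11). Among 9 ubiquitin shuttle and receptor genes 3 were above 0, with a median of −0.06 (2 and −0.03 with the offset). Sqstm1, an autophagy receptor, was at 162 FPKM (0.05, SE 0.11). Rad23b, a shuttle to the 19S particle, had a log2 fold change of −0.16 (SE 0.09). With the offset Ube3c was at −0.07, Ube2n at −0.06 and Rad23b at −0.08. Ngly1, which had only 120 to 179 counts per library, was at 0.42 with the offset (adjusted p 0.440 in edgeR).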

How the data were processed

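RNA from 6 DC2.4 libraries, 3 labelled Vdbp and 3 empty vector, was analysed. The authors deposited unnormalised read counts per Ensembl gene and, for the same genes, FPKM. The deposited FPKM equalled the count divided by the table's gene length and 1 constant per library. HISAT2 and StringTie are named, without a version, per the submitters' processing notes. For the counting step, genome build and strand setting, the entry is: not given in the sources used here. Of the gene identifiers 99.9% are in GENCODE M21 (GRCm38), and 98.3% have the same start and end there.

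In R 4.3.3, edgeR 4.0.16 kept genes by filterByExpr (minimum count 10, minimum total 15, minimum proportion 0.7), scaled libraries by TMM and compared the groups by a two-sided quasi-likelihood F test, with no further term. P-values were adjusted by Benjamini-Hochberg over 12844 genes, with a threshold of 0.05, and the proteasome genes were read from this fit. CPM use the TMM-adjusted library size. The results were recomputed with DESeq2 1.42.0, limma-voom (limma 3.58.1), scaling by RLE, upper quartile or total count, other filters, the replicate number as a block, a length and GC offset (mgcv 1.9.3), limma on log2(FPKM + 1) and log2(FPKM + 0.1), and leaving out libraries. In the offset, length was the deposited gene length, and GC content was that of the longest coding transcript. Leaving out empty-vector replicate 2 together with Vdbp replicate 1, and levels and catalytic ratios per transcript length, were chosen after seeing the data. Tables were handled in Python 3.11.15 with pandas 2.3.3. The procedure was tested on simulated data.

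The members and gene lists were chosen with earlier results of these data known. Full values are given for the catalytic subunits, for the 4 lowest p-values above and below 0, for the levels at either end, for the tissue-restricted and name-only genes, for the 5 inducible genes, and per other list for the most abundant gene and the one with the smallest p. Psma1, Psma2, Psma3, Psma4, Psma5, Psma6, Psma7, Psmb1, Psmb2, Psmb3, Psmc2, Psmc3, Psmc4, Psmc6, Psmd2, Psmd3, Psmd4, Psmd6, Psmd8, Psmd9, Psmd10, Psmd13, Psmd14, Psme3, Psmf1, Nfe2l1 and Adrm1 were named after their values were seen. For each 0 count an upper 95% limit of 3 counts was taken, which covers counting error only.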

Additional observations from a re-analysis of the deposited data

How the results depend on the processing

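No proteasome gene passed an adjusted p of 0.05 under any of the alternatives run, where the smallest adjusted p was 0.418, nor at an adjusted p under 0.1 in edgeR; at an unadjusted p under 0.05 there was 1 in edgeR and 1 in limma-voom, and 2 in DESeq2. Over all genes the calls were 0 in edgeR, 4 with DESeq2, 89 with no filter on low counts, 2 with the length and GC offset, 4 with limma on log2(FPKM + 1), 2 without empty-vector replicate 2 and Vdbp replicate 1, and 0 to 22 when 1 library was left out (22 without empty-vector replicate 3). The unadjusted p under 0.05 called 687 of all genes. The median log2 fold change of the proteasome genes was 0.0516 to 0.0850 when 1 library was left out and 0.0481 without that pair, and their number above 0 was 25 to 34. The labels name no pairing by replicate number, and the correlations of same-numbered deviations were 0.14, 0.03 and −0.27. With groups of 3 libraries these values cannot decide whether same-numbered libraries were handled together. With the replicate block edgeR called 0 of all genes and 0 proteasome genes, and the median log2 fold change was 0.07.

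Directions turned in some genes, and the cause was not tested. When 1 library, or empty-vector replicate 2 with Vdbp replicate 1, was left out, the log2 fold change was −0.0720 to 0.328 for Psmb6, −0.209 to 0.0366 for Psmd1, −0.229 to 0.0414 for Psme4, −0.218 to 0.0261 for Psma8, −0.111 to 0.0519 for Psmc3ip, −0.157 to 0.0388 for Txnl1, −0.179 to 0.0709 for Ubb, −0.0853 to 0.146 for Sqstm1, −0.118 to 0.0053 for Cd14 and −0.315 to 0.0657 for Pecam1. With the length and GC offset it was −0.0553 for Psme1, 0.0360 for Txnl1 and −0.0285 for Sqstm1, and with the replicate block added −0.0539, 0.0365 and −0.0302. The offset also turned the sign of 9 proteasome genes, Psma2, Psma3, Psma6, Psmc2, Psmc3, Psmd4, Psmd6, Psmd10 and Psmd14, and of Nfe2l1. Groups of 3 and the trend with GC content in Vdbp replicate 1 and empty-vector replicate 2 limit what can be told of small differences.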
